A study of Mus musculus with 6 samples.

Results

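The 10 genes described here are chemokines and cytokines that the intestinal epithelium makes: the chemokines Ccl25, Ccl28, Cxcl16, Cx3cl1, Cxcl10 and Ccl20, the interleukins Il18, Il15 and Il33, and Tslp. They were found by symbol through their Ensembl mouse identifiers, and each of the 10 matched 1 of the 55450 rows of the count table. Counts per gene were measured by polyA RNA-seq in epithelium scraped from the small intestine of 6 adult mice, 1 library per mouse, 3 controls (animals 482, 483 and 486) and 3 double knockouts (animals 423, 476 and 477). All 6 mice carried loxP/loxP alleles of both targeted corepressor genes, one of them Ncor1. The knockouts also carried Vil1-Cre-ERT2, a Cre recombinase driven by the villin promoter of epithelial cells and activated by tamoxifen, which the controls lacked. Per the labels, tamoxifen was injected at the age of 8 to 9 weeks, at 15 mg per 100 g for 5 days, and the mice went into metabolic cages on day 21. Only the knockouts held the transgene, so what the deletion and what the recombinase itself did cannot be told apart. The labels divide the intestine into duodenum, jejunum and ileum but do not give the section behind each library.

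Chemokines are small secreted proteins that draw in cells carrying the matching G protein-coupled receptor, and alarmins such as IL-33 and IL-18 are cytokines that epithelial cells release on damage or infection. In the small intestine, CCL25 recruits CCR9-bearing lymphocytes to the epithelium, IL-15 sustains intraepithelial lymphocytes, and CXCL16 and CX3CL1 are made as membrane-anchored proteins that a protease can shed. CCL20 and CXCL10 are induced by inflammatory signals, through NF-kB and, for CXCL10, through interferon. NCoR1 is a corepressor that brings histone deacetylase activity to nuclear receptors and other transcription factors.

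Promoter sequences show which inputs the inducible members can be read against. Promoters of 7 of the 10 members, with 9 start sites, were taken from the RefSeq promoter table (GRCm38.p6). None was taken for Cxcl16, Il15 or Tslp. The 250 bases before the start site are printed for the inducible pair Ccl20 (chr1:83116516-83116765, plus strand) and Cxcl10 (chr5:92348890-92349139, minus strand) and for Cx3cl1 (chr8:94771930-94772179, plus strand), the member that fell. Each is written 5′ to 3′ on the gene's own strand, and capitals mark matches to the searched motifs on either strand.
Ccl20: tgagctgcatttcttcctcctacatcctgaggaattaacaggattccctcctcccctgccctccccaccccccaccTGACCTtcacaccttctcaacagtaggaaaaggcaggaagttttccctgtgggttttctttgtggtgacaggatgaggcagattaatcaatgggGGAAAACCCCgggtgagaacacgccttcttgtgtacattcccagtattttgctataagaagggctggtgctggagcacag
Cxcl10: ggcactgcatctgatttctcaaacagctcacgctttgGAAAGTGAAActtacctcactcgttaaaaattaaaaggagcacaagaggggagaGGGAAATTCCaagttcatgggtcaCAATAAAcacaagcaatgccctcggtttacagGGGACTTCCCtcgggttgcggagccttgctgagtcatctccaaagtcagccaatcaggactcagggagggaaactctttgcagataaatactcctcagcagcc
Cx3cl1: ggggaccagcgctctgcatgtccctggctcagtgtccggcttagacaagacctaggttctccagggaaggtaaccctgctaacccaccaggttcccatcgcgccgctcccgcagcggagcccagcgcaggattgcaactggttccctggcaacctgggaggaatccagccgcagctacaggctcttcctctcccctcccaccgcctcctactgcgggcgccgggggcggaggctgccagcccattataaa

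Motifs were searched on both strands: the NF-kB consensus, the core of the interferon-stimulated response element (GAAA and GAAA with any 2 bases between them), the nuclear receptor half-site (AGGTCA) and a CDX site (TTTATNG). Among 32851 promoters of the same length these occurred in 3.90%, 2.98%, 14.0% and 9.81%. The Ccl20 promoter held 1 NF-kB match, from base -80 to -71 on the opposite strand (printed as GGAAAACCCC), and 1 half-site, from -174 to -169, also on the opposite strand. The Cxcl10 promoter held 2 NF-kB matches (GGGAAATTCC from -159 to -150 and GGGACTTCCC from -103 to -94), 1 interferon element core (GAAAGTGAAA, -213 to -204) and 1 CDX match on the opposite strand. The Cx3cl1 promoter held none of the 4. Its window ends at base 94772179, past the gene start at 94772009 given below, so part of it lies inside the gene. Of the other start sites, the second one of Ccl25 held a half-site and a CDX match, and those of Ccl28, Il18 and Il33 held none. A match describes the letters in this window and does not show that a factor binds there.

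The libraries held between 23476031 and 46835165 counts. Levels are given as CPM, normalised read counts relative to a library size scaled by TMM, a trimmed mean that sets most genes to no change, and 3 counts correspond to 0.0586 to 0.173 CPM. Ncor1 checked the labels: it was at 140.4, 137.5 and 99.3 CPM in controls 482, 483 and 486 against 31.3, 36.4 and 22.5 CPM in knockouts 423, 476 and 477. Epithelial markers were abundant in all libraries, with 17290 to 21910 CPM summed over 11 genes in controls and 18140 to 22620 CPM in knockouts, and 1 of them fell (Vil1, the villin gene whose promoter also drives the recombinase, log2 fold change -1.20). Of the 15028 genes that passed the filter on low counts, 35.6% were called, that is, passed the threshold of 0.05 on the p that Benjamini-Hochberg adjusted from the quasi-likelihood test of edgeR. Higher in the knockout were 17.3% and lower 18.3%. The genotypes did not overlap in 50.3%, with the knockouts above in 23.9% and below in 26.4%. Against this background 1 of the 9 tested members rose (Cxcl16), 1 fell (Cx3cl1) and 7 were not called. Of the 9, the genotypes did not overlap in Cxcl16 and Cx3cl1 and overlapped in the other 7. Both shares of called members, 1 of 9 higher and 1 of 9 lower, lay under the shares over all genes. Tslp was the only member under the filter. The median log2 fold change of the 9 was -0.10, and that of all tested genes was -0.06. Other marker lists moved with the genotype. All 5 erythrocyte genes rose, with summed levels of 7.95 to 22.2 CPM in controls and 35.5 to 543 CPM in knockouts. Of these genes 0 were called without control 482 or control 483, 1 without control 486, and 3 with limma-voom or limma-trend. All 5 stayed called without any one knockout. Of 6 genes of the proximal small intestine 2 rose (Pdx1 and Fabp1, log2 fold changes 3.11 and 2.14) and 1 fell (Lct, -5.18). Of 6 genes of the distal small intestine 1 rose (Slc51b, 1.07), and the median log2 fold change of the 6 was -0.45. At an unadjusted p under 0.05 in edgeR 2 of them were higher and 2 lower, and DESeq2 called 2 higher and 2 lower. Gata4, a defining factor of the proximal part, stood at 105 to 121 CPM in controls and 104 to 134 CPM in knockouts. Their part in the results on the members was not tested. In scraped tissue, fewer cells of a type and less RNA per cell cannot be told apart.

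**Figure D1:**
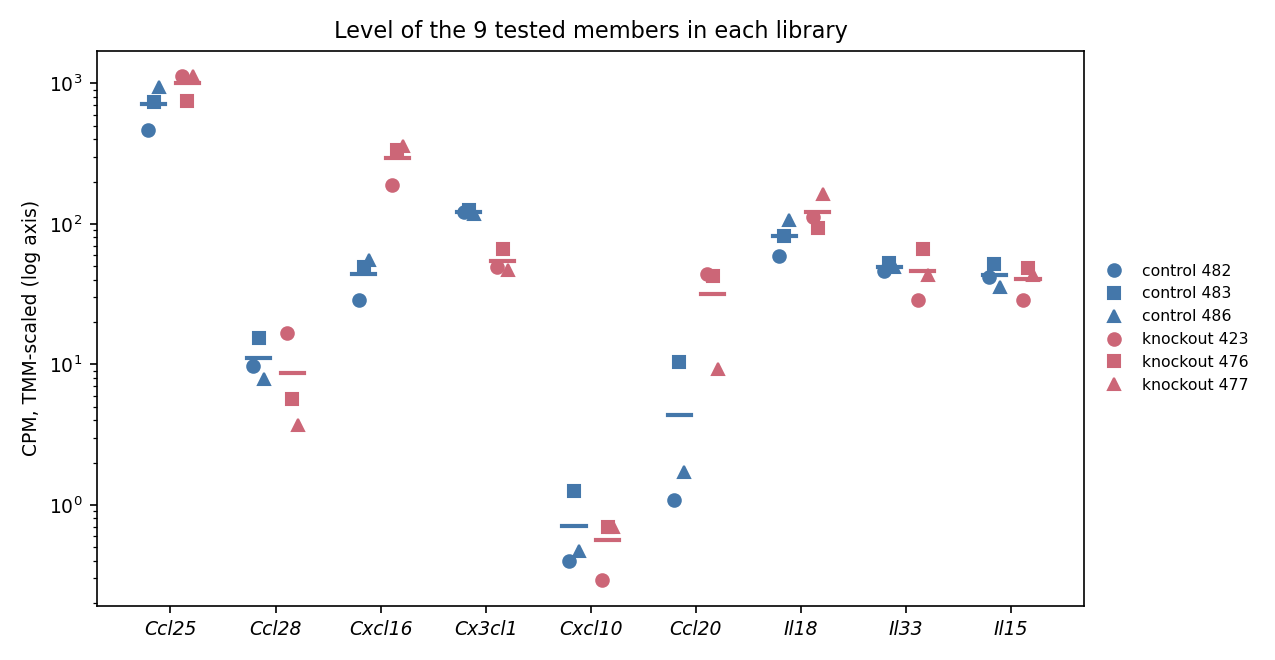
Level of the 9 tested members in each library, in TMM-scaled CPM on a log axis; each symbol is 1 animal and each bar the mean of 3. The genotypes separate for Cxcl16, from 28.6 to 54.9 CPM in controls and 188 to 356 CPM in knockouts, and for Cx3cl1, and Ccl20 spans a wide range in both.

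The membrane-anchored chemokines changed in opposite directions. Cxcl16 encodes a transmembrane chemokine and scavenger receptor whose receptor is CXCR6 (ENSMUSG00000018920, mm10 chromosome 11, 70453983 to 70459984, minus strand). It was at 28.6, 49.2 and 54.9 CPM in controls 482, 483 and 486 against 188, 336 and 356 CPM in knockouts 423, 476 and 477. The lowest knockout library was above the highest control, and the knockouts also differed among themselves, with animal 423 lowest. Cxcl16 rose 6.63-fold (log2 fold change 2.73, SE 0.34, adjusted p = 0.00052 by edgeR) and ranked 241st of 15028 genes by log2 fold change. Of its 3021 exon bases, 552 also belong to exons of Zmynd15 on the opposite strand, and whether the counting used strand is not given in the sources used here. Zmynd15 stood at 0.548 to 0.912 CPM in controls and 1.09 to 2.99 CPM in knockouts and rose too (log2 fold change 1.504, adjusted p = 0.035).

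Cx3cl1 encodes fractalkine, the only CX3C chemokine, whose receptor CX3CR1 marks intestinal macrophages (ENSMUSG00000031778, chromosome 8, 94772009 to 94782427, plus strand). Controls 482, 483 and 486 held 121, 126.5 and 117 CPM, and knockouts 423, 476 and 477 held 49.4, 66.4 and 46.8 CPM. The controls lay close together and all 3 knockouts lay below them. Cx3cl1 fell 2.24-fold, which is -1.16 on the log2 scale (SE 0.21, adjusted p = 0.0030 by edgeR). Within each library, the ratio of Cxcl16 to Cx3cl1 in CPM per kb of exon, which does not depend on the scaling between libraries, was 0.307, 0.506 and 0.611 in the controls and 4.94, 6.59 and 9.89 in the knockouts. Endothelium and neurons can also make Cx3cl1. Of 7 endothelial markers 4 were tested and 1 fell (Lyve1), with summed levels of 4.999 to 7.70 CPM in controls and 1.38 to 8.18 CPM in knockouts. At an unadjusted p under 0.05 in edgeR 1 was higher and 2 were lower. DESeq2 and limma-voom each called 0 higher and 2 lower, and upper-quartile scaling called 0 in either direction. The neuronal gene Elavl4 had no count in any library. The part of endothelium in the fall of Cx3cl1 was not tested.

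The sheddases that release both proteins from the membrane were lower in the knockout. Adam10 was at 105, 93.7 and 88.2 CPM in controls 482, 483 and 486 against 45.1, 47.2 and 48.6 CPM in knockouts 423, 476 and 477, without overlap, and fell by 1.03 on the log2 scale (SE 0.18, adjusted p = 0.0031, edgeR). Adam17 went from 15.5 to 23.9 CPM in controls to 11.4 to 12.7 CPM in knockouts and fell by 0.80 (SE 0.23, adjusted p = 0.023). Its call was lost without any one of animals 482, 483, 423, 476 or 477 (adjusted p of 0.075, 0.087, 0.073, 0.0503 and 0.071) and in the fit corrected for exon length and GC content (0.056).

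Ccl20 had the largest fold change of the 9 tested members but did not pass the threshold. It encodes the only chemokine ligand of CCR6 and is made by the epithelium over lymphoid follicles (ENSMUSG00000026166, chromosome 1, 83116766 to 83119167, plus strand). Its levels were 1.08, 10.4 and 1.70 CPM in controls 482, 483 and 486 and 44.0, 42.6 and 9.20 CPM in knockouts 423, 476 and 477. Control 483 was higher than knockout 477, so the genotypes overlapped, and the other 2 controls were below every knockout. Its log2 fold change was 2.90 (SE 0.96), or 7.46-fold, at an adjusted p of 0.051 by edgeR, and it passed in 8 of 16 alternative fits, among them DESeq2 (adjusted p = 0.030). Without control 483 it was 4.52 (adjusted p = 0.0023), and without control 482 or 486 it was 2.42 and 2.51 (adjusted p of 0.20 and 0.18).

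Control 483 also stood apart in some genes of B cells and follicles, named here after their values were seen. This was not particular to follicle genes, as control 483 was also the highest control in other marker sums. In controls 482, 483 and 486 these were 129, 687 and 335 CPM for T cells and intraepithelial lymphocytes. They were 21.5, 61.6 and 32.5 CPM for myeloid cells and 14.0, 37.7 and 19.2 CPM for mesenchyme. Ccr6, the receptor of CCL20, stood at 1.72 CPM in control 483 and at 0 to 0.133 CPM in the other 5 libraries. The B cell gene Ms4a1 stood at 11.7 CPM there and at 0 to 1.049 CPM elsewhere, and Cxcl13, a chemokine of B cell follicles, at 8.91 CPM against 0.0211 to 0.0997 CPM. Gp2, a marker of the M cells that overlie follicles, stood at 1.28 CPM in control 483 and 0.0575 to 0.326 CPM in the others. Knockout 423, one of the 2 libraries with the most Ccl20, had 1.049 CPM of Ms4a1, and knockout 476, with nearly as much Ccl20, had none. Over the whole B and plasma cell list the summed level was 53.8 to 311 CPM in controls and 4.77 to 106 CPM in knockouts, mostly Jchain, and none of its 3 tested genes of 6 was called, by edgeR, DESeq2 or limma-voom, or had an unadjusted p under 0.05 in edgeR. Of 8 markers of M cells and follicle-associated epithelium, 6 were tested, 1 rose (Ccl9) and 3 fell (Spib, Tnfrsf11a and Marcksl1), with summed levels of 94.2, 78.8 and 67.2 CPM in controls 482, 483 and 486 and 38.3 to 58.4 CPM in knockouts. Control 483 therefore did not stand apart in that sum, and Marcksl1 was lower in it than in controls 482 and 486 (15.5 against 33.3 and 31.3 CPM). The part of follicle tissue in the Ccl20 values was not tested.

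**Figure D2:**
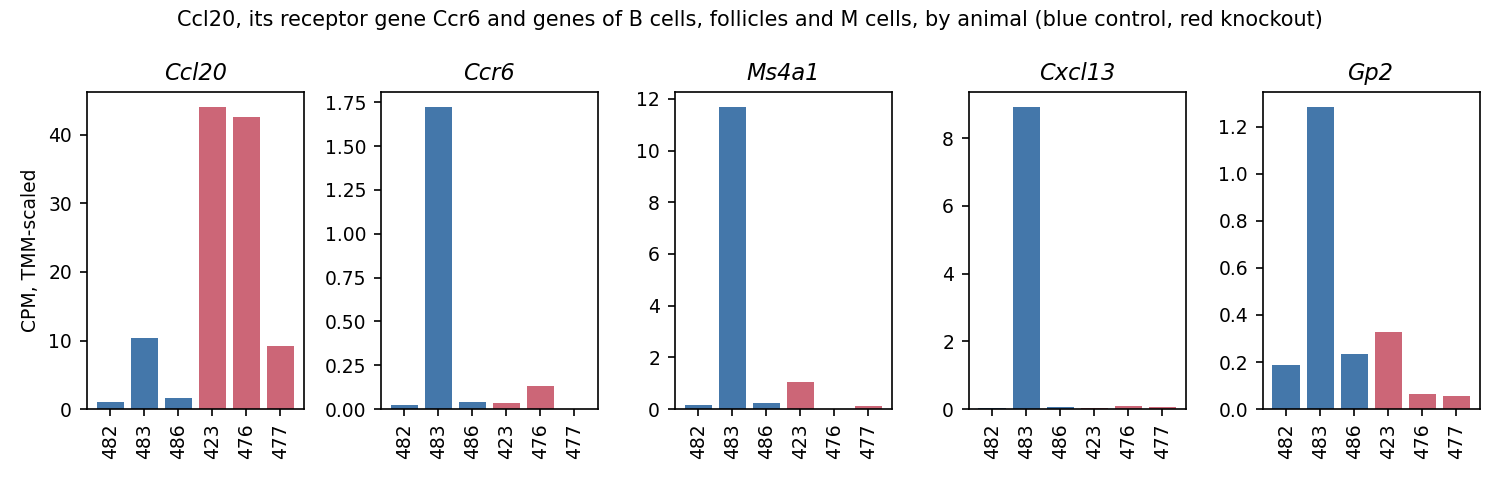
Level of Ccl20, of its receptor gene Ccr6, of the B cell gene Ms4a1, of Cxcl13 and of the M cell gene Gp2 in each animal, in TMM-scaled CPM with a separate axis from 0 for each gene. Control 483 has the highest bar in the 4 right panels, whereas Ccl20 is highest in knockouts 423 and 476, at 44.0 and 42.6 CPM.

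Cxcl10, an interferon-induced chemokine for CXCR3-bearing T cells, was near the limit of detection (ENSMUSG00000034855, chromosome 5, 92346638 to 92348889, minus strand). It had 19, 37 and 24 counts in controls 482, 483 and 486 and 8, 21 and 12 counts in knockouts 423, 476 and 477. The genotypes overlapped, with 0.401 to 1.25 CPM and 0.290 to 0.698 CPM, and the log2 fold change of -0.32 (SE 0.59, adjusted p = 0.70, edgeR) changed sign without control 483 or knockout 423. Of its 2252 exon bases 133 lie in exons of Art3 on the opposite strand, at 0.0665 to 0.304 CPM over the 6 libraries. Its neighbour Cxcl9 also overlapped, at 0.274 to 2.06 CPM in controls and 0.332 to 0.575 CPM in knockouts (log2 fold change -1.13, SE 0.70, adjusted p = 0.23).

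Among the homeostatic chemokines, Ccl25 was abundant in every library (ENSMUSG00000023235, chromosome 8, 4325210 to 4360020, plus strand). Controls 482, 483 and 486 held 468, 740.1 and 941 CPM and knockouts 423, 476 and 477 held 1129, 750.5 and 1127 CPM. Knockout 476 lay among the controls, and the log2 fold change was 0.48 (SE 0.31, adjusted p = 0.24, edgeR). Ccl25 shares 204 of its 7445 exon bases with Elavl1 on the opposite strand, which stood at 31.4 to 46.3 CPM over the 6 libraries. Ccl28, a mucosal chemokine for CCR10-bearing plasma cells, was far lower (ENSMUSG00000074715, chromosome 13, 119623819 to 119654359, plus strand). It was at 9.72, 15.4 and 7.91 CPM in controls against 16.8, 5.68 and 3.68 CPM in knockouts 423, 476 and 477. Knockout 423 was above and the other 2 knockouts were below all controls, and the log2 fold change was -0.33 (SE 0.50, adjusted p = 0.63). Without knockout 423 it was -1.20 (adjusted p = 0.047), and without knockout 477 it was 0.03.

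The IL-1 family members were not called. Il18, which encodes a cytokine stored as a precursor in enterocytes (ENSMUSG00000039217, chromosome 9, 50554827 to 50581840, plus strand), was at 58.8, 81.8 and 106 CPM in controls 482, 483 and 486 against 111, 93.4 and 162 CPM in knockouts 423, 476 and 477. Only knockout 476 lay within the range of the controls, and the log2 fold change was 0.57 (SE 0.28, adjusted p = 0.14, edgeR). Il18 has 1031 exon bases, and with the dependence on exon length and GC content taken out of every library its log2 fold change was -0.07. Il33, a nuclear alarmin also made by stroma and endothelium (ENSMUSG00000024810, chromosome 19, 29925114 to 29960718, plus strand), was at 46.3, 52.3 and 49.1 CPM in controls against 28.7, 65.9 and 43.0 CPM in knockouts 423, 476 and 477. The controls were tightly grouped and the knockouts lay on both sides of them (log2 fold change -0.10, SE 0.28, adjusted p = 0.795). None of 10 mesenchyme markers was called by edgeR, DESeq2 or limma-voom, and 1 was lower at an unadjusted p under 0.05 in edgeR, with summed levels of 14.0 to 37.7 CPM in controls and 11.8 to 43.2 CPM in knockouts.

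Il15, the growth factor of intraepithelial lymphocytes and natural killer cells (ENSMUSG00000031712, chromosome 8, 82331632 to 82403222, minus strand), was at 42.1, 51.8 and 35.3 CPM in controls 482, 483 and 486 against 28.8, 48.5 and 43.5 CPM in knockouts 423, 476 and 477. The ranges overlapped (log2 fold change -0.10, SE 0.24, adjusted p = 0.78, edgeR). Il15ra, which encodes the receptor chain that presents IL-15 on the cell surface, fell instead, from 6.15 to 8.21 CPM in controls to 2.88 to 3.44 CPM in knockouts (log2 fold change -1.20, SE 0.26, adjusted p = 0.0082). The ratio of Il15 to Il15ra in CPM per kb was 10.3, 12.4 and 11.3 in the controls and 16.5, 27.9 and 29.7 in knockouts 423, 476 and 477. Tslp, an epithelial cytokine of type 2 immunity (ENSMUSG00000024379), had 11, 3 and 13 counts in the controls and 1, 0 and 0 in the knockouts. Over the groups this was 27 counts against 1, a level 15.8-fold lower in the knockouts with a 95% exact (Clopper-Pearson) interval of 2.61 to 647 that covers counting error only. Tslp was under the filter and has no test in the fit described here.

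**Figure D3:**
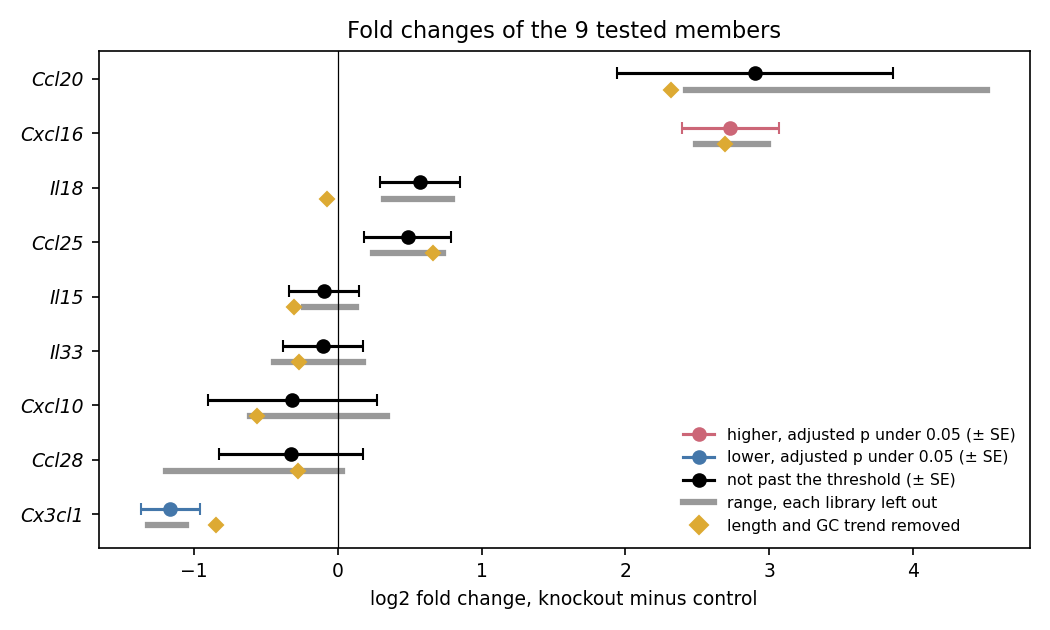
Log2 fold change, knockout minus control, of the 9 tested members with its SE (circles), the range over fits that left out 1 library (grey bars) and the value after correction for exon length and GC content (diamonds). Cxcl16 at 2.73 and Cx3cl1 at -1.16 are the 2 past the threshold, and the bar of Ccl20 reaches from 2.42 to 4.52.

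Per kb of exon, Ccl25 and Il18 led the order in both genotypes and Cxcl16 joined them in the knockouts. In controls the order of mean CPM per kb was Ccl25 (96.2), Il18 (79.7), Cx3cl1 (30.9), Il15 (19.0), Il33 (17.1), Cxcl16 (14.6), Ccl20 (3.08), Ccl28 (2.27), Cxcl10 (0.314) and Tslp (0.147). Neighbours in that order overlapped between Ccl25 and Il18, from Il15 through Cxcl16, between Ccl20 and Ccl28 and between Cxcl10 and Tslp. In knockouts it was Ccl25 (135), Il18 (118), Cxcl16 (97.1), Ccl20 (22.5), Il15 (17.8), Il33 (15.9), Cx3cl1 (13.8), Ccl28 (1.80), Cxcl10 (0.248) and Tslp (0.00906). There the first 3 overlapped in sequence, and so did Ccl20 through Cx3cl1. Of the sum of the 10 members per kb, Cxcl16 made up 4.78% to 5.83% in the controls and 15.9%, 28.2% and 24.6% in knockouts 423, 476 and 477, and Cx3cl1 9.50% to 15.6% and 2.48% to 4.27%. The exon length used is the union over all annotated transcripts, so a gene with long rarely used exons is set too low on this scale.

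**Figure D4:**
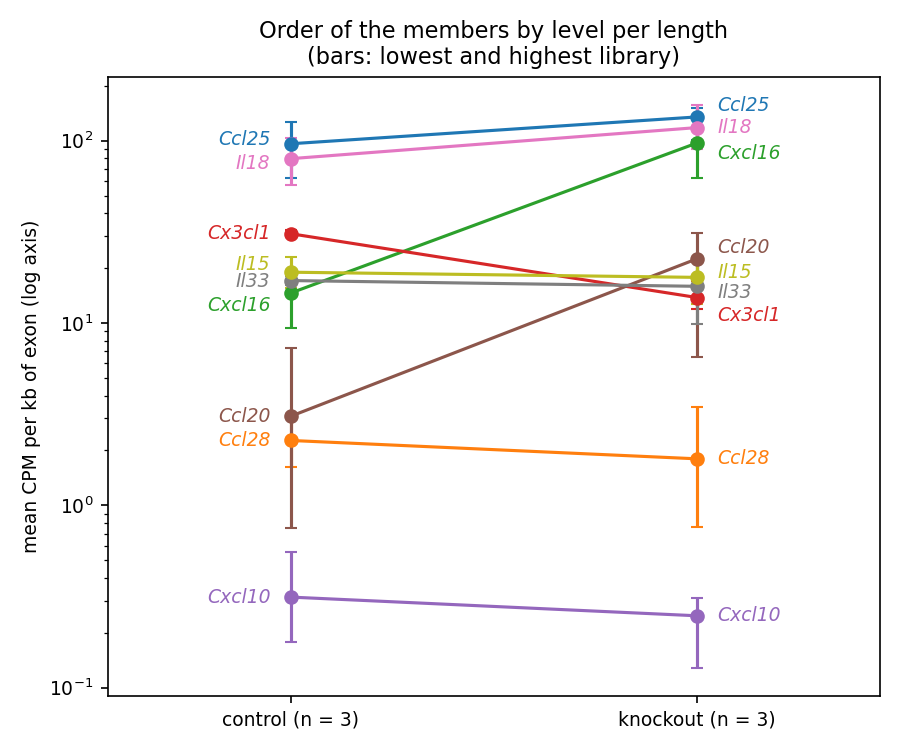
Mean level of 9 members per kb of exon (log axis) in controls and knockouts, with bars from the lowest to the highest library; Tslp, with no count in 2 libraries, is left out. Cxcl16 crosses from 14.6 to 97.1 CPM per kb and Cx3cl1 from 30.9 to 13.8.

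The receptors of the members are mostly leukocyte genes and were low throughout, with at most 15.5 CPM in any library. Of 16 receptor genes 10 were tested, none rose, 2 fell (Il15ra and Il18r1) and 8 were not called. The shares over all tested genes were 17.3% higher and 18.3% lower. At an unadjusted p under 0.05 in edgeR 0 were higher and 3 lower, and DESeq2 and limma-voom each called 0 and 3. Il18r1, a chain of the IL-18 receptor, went from 0.527 to 0.811 CPM to 0.0362 to 0.288 CPM (log2 fold change -2.44, SE 0.69, adjusted p = 0.023, edgeR). That call was lost without control 483, knockout 423 or knockout 476 (adjusted p of 0.067, 0.082 and 0.089). Cxcr6, the receptor of CXCL16, stood at 0.843 to 2.63 CPM in controls and 1.95 to 3.05 CPM in knockouts (log2 fold change 0.48, SE 0.45, adjusted p = 0.43). Cx3cr1, the fractalkine receptor, stood at 0.78 to 1.504 and 0.115 to 1.41 CPM, and Ccr9, the receptor of CCL25, at 1.26 to 4.90 and 1.78 to 3.16 CPM. The log2 fold changes of Cxcr3, Il1rap, Il2rg, Il2rb and Crlf2 were -1.13, -1.60, -0.81, 0.46 and 0.76 and did not pass the test. Il1rap, a shared chain of the IL-33 receptor, passed in 6 of 15 alternative fits, among them DESeq2 (adjusted p = 0.028) and the fit without knockout 423 (log2 fold change -2.60, adjusted p = 0.011). Without control 483, Il2rb rose (1.31, adjusted p = 0.013). Ccr3, Ccr6, Ccr10, Il7r, Il18rap and Il1rl1 were under the filter. Of 11 T cell and intraepithelial lymphocyte markers 10 were tested and 1 fell (Ptprc, the general leukocyte gene CD45), with summed levels of 129 to 687 CPM in controls and 531 to 614 CPM in knockouts. Gzma, which encodes granzyme A of cytotoxic lymphocytes, made up 49.5, 377.5 and 195.5 CPM of that sum in controls 482, 483 and 486 and 378 to 468 CPM in knockouts and was not called.

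Genes that cleave, activate or neutralise the members fell more often than they rose. Of 25 listed genes 22 were tested, 1 rose and 9 fell, next to 17.3% and 18.3% of all tested genes. The median log2 fold change of the 22 was -0.52, against -0.06 over all genes. Dpp4, a brush border peptidase that trims chemokines such as CXCL10, was at 1293, 1502 and 1578 CPM in controls and 139, 149 and 197 CPM in knockouts (log2 fold change -3.17, SE 0.26, adjusted p = 6.1e-05, edgeR). Naip5, Naip6 and Naip2, whose products sense bacterial flagellin and secretion systems for the NLRC4 inflammasome, fell by 3.34, 2.69 and 1.91 on the log2 scale, whereas Nlrc4 itself had a log2 fold change of -0.09 and was not called. Naip1 lay the other way, at 39.0 to 60.9 CPM in controls and 68.0 to 97.9 CPM in knockouts without overlap, and was not called (log2 fold change 0.63, adjusted p = 0.064). The Naip genes are near-identical paralogs, so how their reads were divided is uncertain. Nlrp1b, an inflammasome sensor of another family, fell by 1.99. Casp1, the protease that matures IL-18, stood at 94.6 to 163 CPM and 56.4 to 94.1 CPM (log2 fold change -0.78, SE 0.27, adjusted p = 0.0499). Its call was lost without control 483, control 486, knockout 476 or knockout 477 (adjusted p of 0.079, 0.13, 0.15 and 0.14), and with 2 other scalings or a stricter filter. Il18bp, the decoy that binds IL-18, was at 3.42, 9.996 and 3.44 CPM in controls and 3.22 to 3.82 CPM in knockouts (log2 fold change -0.66, adjusted p = 0.25). The count of genes that rose was 0 without control 482, without knockout 477 or with library-size scaling, 2 with upper-quartile scaling, with no filter or with the correction for exon length and GC content, and 3 with DESeq2, where 9 fell.

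Of 30 other chemokine genes, 11 were tested, 2 rose and 1 fell, next to 17.3% and 18.3% of all tested genes. Ccl6 and Ccl9, which encode related CC chemokines, rose from 40.2 to 54.3 CPM to 126 to 249 CPM (log2 fold change 1.84, SE 0.29, adjusted p = 0.0017, edgeR) and from 3.77 to 5.54 CPM to 11.4 to 27.6 CPM (1.88, SE 0.36, adjusted p = 0.0042). In both genes knockout 423 was the highest library. Ccl24, an eotaxin, fell from 2.38 to 8.04 CPM to 0.233 to 0.651 CPM (-3.30, SE 0.58, adjusted p = 0.0030). Neutrophil-attracting Cxcl1, Cxcl2, Cxcl3 and Cxcl5 and monocyte-attracting Ccl2 and Ccl7 stood at 0 to 0.135 CPM in every library and under the filter. Of 10 myeloid markers 8 were tested, 2 rose (Cd14 and Csf1r) and 2 fell (Itgax and Itgam), with summed levels of 21.5 to 61.6 CPM and 31.9 to 34.0 CPM, and their part in the Ccl6 and Ccl9 values was not tested.

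Of 29 other cytokine genes of epithelium, 14 were tested, 2 rose and 7 fell, with a median log2 fold change of -1.15. Among all tested genes 17.3% rose and 18.3% fell. Tnfsf10, the death ligand TRAIL, fell from 37.8 to 68.7 CPM to 6.52 to 9.61 CPM (-2.56, SE 0.29, adjusted p = 0.00031, edgeR). Il34, a ligand of the macrophage receptor CSF1R, fell by 3.13 on the log2 scale, and the IL-6 family cytokine gene Lif by 2.26. Il25, a tuft cell alarmin, totalled 62 counts in the controls and none in any knockout library, at least 12.1-fold lower against a floor of 3 counts over the group. All 5 tuft cell markers fell, Il25 being one of them, and their summed level was 49.2 to 153 CPM in controls and 1.21 to 6.41 CPM in knockouts. The genes that rose were Mif (1.63) and Tnfsf13 (1.13), which encodes the B cell factor APRIL, and without knockout 477 or with library-size scaling 1 gene of the list rose, against 3 without knockout 423 or with the correction for exon length and GC content.

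Upstream of the members, 22 of 27 receptor genes for cytokines and microbial products were tested, none rose and 6 fell. Among all tested genes 17.3% rose and 18.3% fell. At an unadjusted p under 0.05 in edgeR 2 of the 22 were higher and 8 lower. Il17rc, a chain of the IL-17 receptor that induces CCL20, went from 110 to 127 CPM to 22.9 to 33.9 CPM (log2 fold change -2.09, SE 0.21, adjusted p = 0.00020, edgeR). Il17rb, the receptor chain for IL-25, fell by 2.05, and the RNA sensor genes Ddx58 and Tlr3 by 1.30 and 1.12. With library-size scaling 12 of the 22 fell, and with DESeq2 6 fell and 2 rose.

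Of 34 inflammatory transcription factors and adaptors, all tested, 3 rose and 9 fell, next to 17.3% and 18.3% of all tested genes. Bcl3, an atypical IkB protein that binds NF-kB subunits, rose from 31.5 to 35.9 CPM to 82.3 to 126 CPM (log2 fold change 1.56, SE 0.22, adjusted p = 0.0011, edgeR). The NF-kB subunit gene Relb fell from 54.0 to 66.7 CPM to 24.4 to 38.9 CPM (-0.95, SE 0.22, adjusted p = 0.0099), and Cebpd and Atf3, which encode inducible bZIP factors, fell by 2.36 and 1.33. The counts moved when a library was left out: 3 rose and 11 fell without control 486, 1 rose and 5 fell without control 482, 2 and 4 without control 483, 3 and 4 without knockout 423, 1 and 9 without knockout 476, and 1 and 4 without knockout 477. Corrected for exon length and GC content 5 rose and 4 fell, and scaling by library size alone gave 1 and 18.

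**Figure D5:**
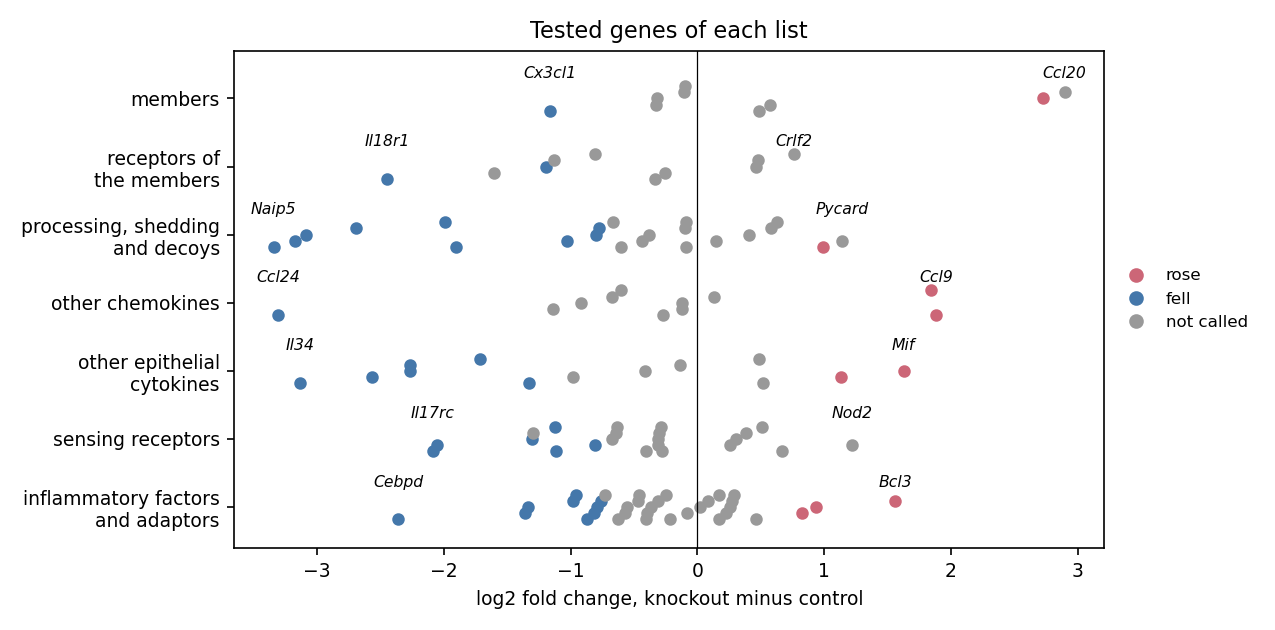
Log2 fold change, knockout minus control, of every tested gene of each list, with the most extreme genes named; Il25, which had no count in the knockouts, is left out. The 9 members span -1.16 to 2.90, and the list of processing, shedding and decoy genes reaches down to -3.34 at Naip5.

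Genes with the pattern most like a member were found by the root mean square distance of log2 CPM, each gene centred on its mean over the 6 libraries, among 10959 genes that averaged 2 CPM or more. Nearest to Cxcl16 were Aldh1a1, a retinaldehyde dehydrogenase (distance 0.161, log2 fold change 2.92), the carnitine transporter gene Slc22a5 (0.209, 2.69) and Tmem37 (0.215, 2.71). Nearest to Cx3cl1 were the histone demethylase gene Kdm7a (0.0574, -1.10), the calpain gene Capn1 (0.0723, -1.24) and Stoml1 (0.0751, -1.18). For Ccl20 the 3 nearest genes lay farther off, 2210407C18Rik at 0.849 (2.99), Gm18635 at 0.908 (3.39) and the water channel gene Aqp8 at 0.997 (3.27). These are descriptions over 6 libraries that share the genotype difference.

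Adjacent genes were compared last. Med11, 256 bases from the Cxcl16 gene, was not called (0.60 on the log2 scale, SE 0.25, adjusted p = 0.084, edgeR), and Tm4sf5 on the other side, 45260 bases away, rose (1.00, SE 0.30, adjusted p = 0.028). Ccl22 and Ccl17, which flank Cx3cl1, were under the filter at 0 to 0.675 CPM. Of the neighbours of the other members, Sdhd beside Il18 rose (0.98), and Cers4 beside Ccl25 (-1.96) and Inpp4b beside Il15 (-2.58) fell.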

How the data were processed

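The 6 libraries, 1 mouse each, were grouped by the genotype in their titles. The authors deposited raw counts for every gene and library, which are whole numbers without normalization. The submitters' processing notes list STAR 2.7.9a, fastp 0.21.0, featureCounts (Subread 1.6.2), DESeq2 1.23.10, FastQC 0.11.7, bcl2fastq and the build mm10. Annotation, strand setting and filters were not given in the sources used here. A second deposited table holds variance-stabilised log2 values, used for 1 alternative. Symbols (for 55104 of 55450 identifiers), exon lengths and coordinates came from GENCODE M21.

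The counts went through filterByExpr, TMM and a robust quasi-likelihood fit in edgeR 4.0.16 (R 4.3.3), with Benjamini-Hochberg adjustment over 15028 genes and a threshold of 0.05. The script was tested on simulated data. It recovered 0 of 50 genes changed 1.5-fold, 8 of 48 changed 2-fold, 34 of 47 changed 4-fold and 46 of 47 changed 8-fold. Of its 101 calls 13 were false. The simulation changed 200 of 15028 genes, whereas 5348 were called in the data. The adjusted p depends on how many genes change, so these shares do not give the recovery in the data. A gene that was not called may still have changed by 1.5-fold or 2-fold. The SE is the log2 fold change over the square root of F. Intervals and floors cover counting error only.

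Alternatives were 3 scalings, 2 filters, DESeq2 1.42.0, limma-voom and limma-trend (limma 3.58.1), the 20 most abundant genes left out, a correction of each library for exon length and GC content, and each library left out. Members and lists were chosen with earlier results of these data known. Named were all members and their receptors, from every other list up to 4 tested genes by smallest adjusted p, Dpp4, Adam10, Adam17, Casp1 and Il18bp, the nearest genes on the chromosome, and the 3 nearest patterns of the 3 members with the smallest adjusted p. Other genes named were picked after their values were seen. One of the targeted genes and some listed genes are not reported here.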

Additional observations from a re-analysis of the deposited data

How the results depend on the processing

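Cxcl16 and Cx3cl1 kept their direction and stayed past the threshold under all 16 alternatives, at log2 fold changes of 2.28 to 2.995 and -1.60 to -0.85. Ccl20 stayed positive in all 16 and passed in 8 of them. It therefore joined Cxcl16, giving 2 members that rose, with upper-quartile scaling, library size alone, no filter, the filter of at least 2 CPM, DESeq2, limma-voom and limma-trend. With no filter 2 members fell, Tslp being the second (log2 fold change -3.63, adjusted p = 0.031), and the adjusted p of Ccl20 was 3.8e-22, since edgeR then estimated no gene-specific spread (a prior of infinite degrees of freedom, against a median of 5.73). When each library was left out, 1 to 2 members rose and 1 to 2 fell. Over all genes 2596 rose and 2752 fell. Library size alone, which moves the median by -0.44, gave 1133 and 4554, and fits without 1 library gave 1510 to 2958 and 1748 to 2982.

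Values that changed sign belonged to genes that did not pass the test. Ccr9 (log2 fold change -0.25) stood at 0.0091 with limma-voom and 0.10 with the length and GC trend removed, where Il18 stood at -0.073. The ranges over fits without 1 library were -1.20 to 0.029 for Ccl28, -0.61 to 0.34 for Cxcl10, -0.24 to 0.12 for Il15, -0.44 to 0.17 for Il33, -0.63 to 0.29 for Ccr9, -0.96 to 0.14 for Cx3cr1 and -0.93 to 0.035 for Il18bp. The causes were not tested. No paired analysis was possible because the genotypes share no animal number. Depth limits Tslp and Cxcl10, with at most 13 and 37 counts in a library.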
